A study of Rattus norvegicus with 9 samples.

Results

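A group of 7 G-protein-coupled receptors that raise or restrain insulin release was followed across the RNA-seq of INS-1E cells, a rat insulinoma line that makes and secretes insulin. They are Ffar1, Gpr119, Glp1r, Gipr, Gcgr, Adra2a and Chrm3. The genes were chosen by name, with earlier results of these data known. All 7 of them are among the 20645 genes of the authors' table. They are also among the 12958 with a mean of at least 1 FPKM over the 9 libraries, which were the genes tested. FPKM is the number of fragments adjusted for gene length and for the depth of the library. INS-1E cells of 1 insulinoma line were exposed for 24 h to fatty-acid-free BSA (BSA group), to palmitic acid (PA group), or to palmitic acid together with cyanidin-3-O-glucoside, an anthocyanin (PA + C3G group), with 3 libraries per group. The labels give no doses, and the methods of the study give 0.5 mM PA and 50 µM C3G. There was no group with C3G alone, so C3G was measured only in the presence of PA. The labels do not describe the replicates as separate cultures, while the methods of the study call its experiments in general biological triplicates, and p-values measure the spread between these libraries.

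These receptors act on insulin release through 3 kinds of G protein. Gs raises cyclic AMP, which acts through protein kinase A and the exchange factor Epac2 to enhance granule release that glucose has set off. Gq activates phospholipase C, which releases calcium from the endoplasmic reticulum and activates protein kinase C, and Gi lowers cyclic AMP and opens potassium channels that restrain the beta cell. Glp1r and Gipr are the receptors of the incretin hormones GLP-1 and GIP, Gcgr is the glucagon receptor and Gpr119 senses oleoylethanolamide and related lipids, and all of these couple to Gs. Ffar1, which is also called GPR40, responds to medium- and long-chain fatty acids through Gq, and Chrm3 is the muscarinic receptor through which acetylcholine acts by Gq. Adra2a, the alpha-2A adrenergic receptor, couples to Gi and carries the inhibition of insulin release by noradrenaline.

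The libraries held from 45559993 to 66730721 estimated counts. The precision of each value is limited by the 3 libraries per group, and how much of the spread comes from counting was not tested. The 8 beta-cell markers that could be read were all above 1 FPKM, and their summed level lay between 44689 and 45391 FPKM in the BSA group, between 18515 and 19104 in the PA group and between 41382 and 47151 in the PA + C3G group. The largest terms were Ins1 (means of 26650, 13744 and 32002 FPKM with BSA, PA and PA + C3G) and Ins2 (13778, 1871 and 7008). In the same order, means were 3339, 2489 and 3561 for Iapp and 254, 163 and 253 for Pdx1. They were 381, 212 and 313 for Mafa and 510, 103 and 172 for Slc2a2. Unlike these, Nkx6-1 (50.0, 52.1 and 76.0) and Ucn3 (51.9, 130 and 196) had no lower mean with PA than with BSA. None of 5 exocrine, duct, stromal and immune markers reached 1 FPKM in any library, and of 4 markers of other islet cells, Gcg and Ghrl did. The summed level of those 4 lay between 9.55 and 31.9 FPKM in the BSA group, between 2.68 and 7.01 in the PA group and between 5.37 and 23.1 in the PA + C3G group. In RNA from whole cultures, fewer cells of a kind and less RNA per cell cannot be told apart, and the part of these marker differences in the receptor values was not tested.

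Gipr was the most abundant of the receptors and Chrm3 the least in each group. In the BSA group the mean level fell in the order Gipr, Glp1r, Ffar1, Gpr119, Adra2a, Gcgr and Chrm3, from 178 FPKM for Gipr to 1.99 FPKM for Chrm3. In both the PA and the PA + C3G group, Gcgr stood above Adra2a and the rest of the order was the same. For each pair of neighbours in these orders, the 3 libraries of the higher gene were above the 3 of the lower gene. The ratio of mean FPKM between neighbours was smallest for Adra2a over Gcgr in the BSA group, at 1.12. By mean FPKM over the 9 libraries, Gipr ranked 365 among all 20645 genes and Chrm3 11062. FPKM depends on the length of the gene model, and the annotated span of Ffar1, at 905 bases, is the shortest of the 7.

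**Figure D1:**
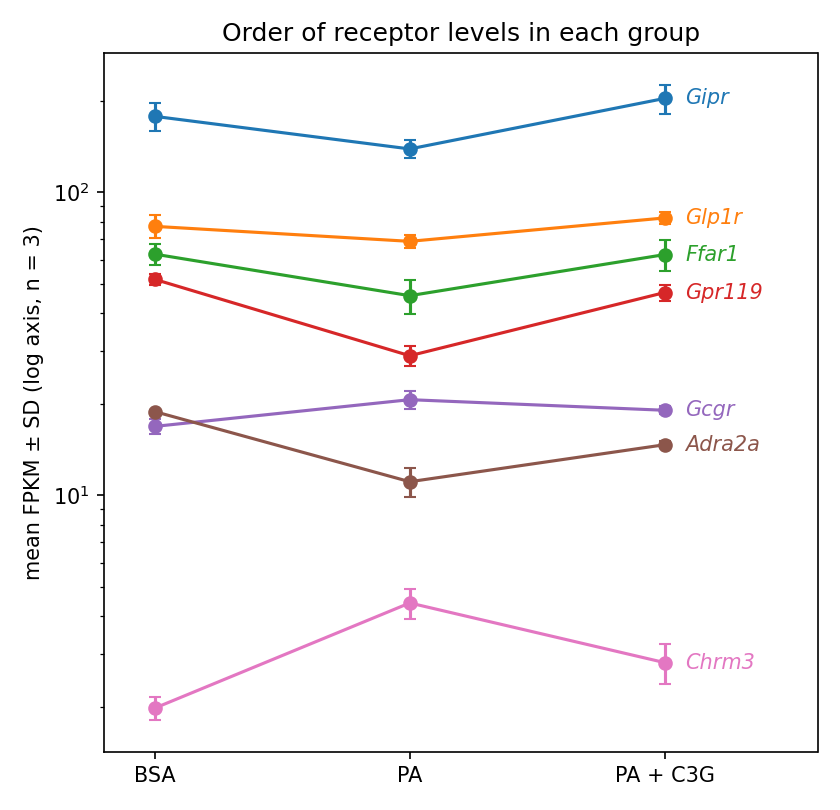
Mean FPKM of each receptor gene (log axis) in the BSA, PA and PA + C3G groups, with bars for the SD of 3 libraries and lines joining the means of a gene. Gipr was highest in each group, at 178, 139 and 204 FPKM, and the lines of Gcgr and Adra2a cross between BSA and PA.

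PA lowered Gpr119, Adra2a, Ffar1 and Gipr and raised Chrm3 and Gcgr. By edgeR's quasi-likelihood test with a threshold of 0.05 on the adjusted p-value, 6 of the 7 receptors differed between PA and BSA, 4 lower and 2 higher. Of all tested genes, 51.0% passed the same threshold in this comparison, 25.8% higher and 25.2% lower, so the count of receptors changed is read against a background in which about as many genes changed as did not. The median log2 fold change of the receptors was −0.33, against 0 for all tested genes. Adding C3G to PA gave higher Gpr119, Gipr, Ffar1, Adra2a and Glp1r and lower Chrm3 than PA alone. Here too 6 receptors passed, 5 higher and 1 lower, where 21.2% of all tested genes passed, 11.1% higher and 10.2% lower. Their median log2 fold change was 0.44, against 0 for all tested genes. Between PA + C3G and BSA, 3 receptors passed, Chrm3 and Gcgr higher and Adra2a lower, beside 36.9% of all tested genes, 19.0% higher and 17.9% lower. These comparisons share libraries with each other, the PA libraries in the first and second and the BSA and PA + C3G libraries with the third, so their values are set side by side and are not independent.

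The split of directions over all genes depends on the scaling. In PA + C3G versus PA, TMM normalization gave 1436 rises and 1316 falls. Setting the FPKM of every library to an equal total (TPM scaling) gave 775 rises and 2525 falls, with a median over all genes of −0.09. For PA + C3G versus BSA the split was 2462 higher and 2321 lower with TMM, and 1891 and 3038 with TPM scaling. The receptors called in PA versus BSA and in PA + C3G versus PA were 2 higher with 4 lower, and 5 higher with 1 lower, under each of these scalings. In PA + C3G versus BSA the receptors called were 2 higher and 1 lower with TMM, and 1 higher and 1 lower with TPM scaling.

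**Figure D2:**
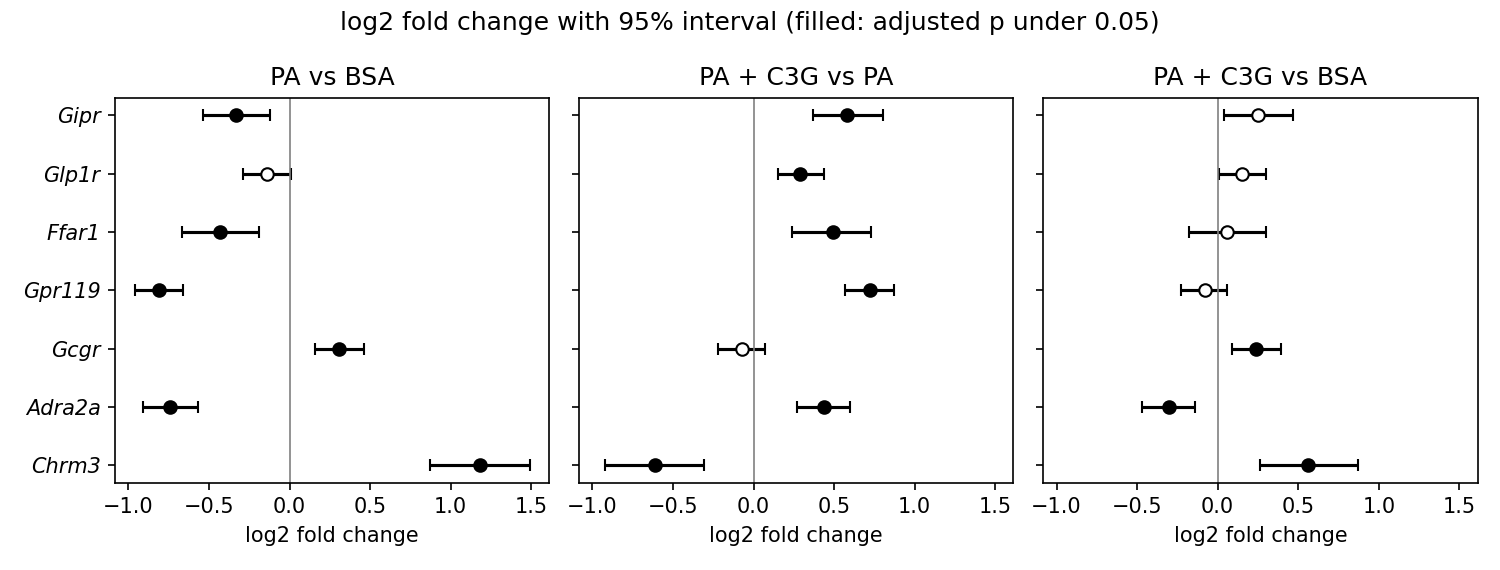
Log2 fold change of each receptor gene from edgeR's quasi-likelihood test with its 95% interval, for PA versus BSA, PA + C3G versus PA and PA + C3G versus BSA. Filled points had an adjusted p-value under 0.05, which were 6, 6 and 3 of the 7 genes.

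Gpr119 (ENSRNOG00000024517), the lipid-sensing receptor coupled to Gs, lies on chromosome X from 135515545 to 135521598 on the minus strand in the authors' table, whose genome build is not given in the sources used here. It was at 49.9, 54.2 and 50.6 FPKM in the BSA libraries, at 28.2, 31.3 and 27.3 with PA and at 43.6, 49.0 and 47.3 with PA + C3G. All PA libraries were below all others, and the PA + C3G libraries were also all below the BSA libraries, by a small gap. Gpr119 was 1.75-fold lower with PA than with BSA (log2 fold change −0.81 ± 0.07 SE, edgeR adjusted p = 7.01e-06) and 1.65-fold higher with PA + C3G than with PA (log2 fold change 0.72 ± 0.07 SE, edgeR adjusted p = 0.00021). Among the 12958 tested genes, it ranked 73 by p-value in the latter comparison and 824 in the former. Between PA + C3G and BSA the log2 fold change was −0.08, with a 95% interval from −0.23 to 0.06.

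Ffar1 (ENSRNOG00000024009), the fatty acid receptor coupled to Gq, lies on chromosome 1 from 89308475 to 89309379 on the minus strand. It was at 61.6, 67.7 and 58.1 FPKM with BSA, at 41.3, 52.3 and 43.1 with PA and at 57.7, 70.5 and 58.7 with PA + C3G. The PA libraries were below those of both other groups, and the BSA and PA + C3G libraries overlapped. Ffar1 was 1.35-fold lower with PA than with BSA (log2 fold change −0.43 ± 0.11 SE, edgeR adjusted p = 0.00817) and 1.40-fold higher with PA + C3G than with PA (log2 fold change 0.49 ± 0.11 SE, edgeR adjusted p = 0.0124). The latter call was lost without PA replicate 3, where the log2 fold change was 0.44 with an adjusted p-value of 0.0511 from edgeR. Between PA + C3G and BSA the log2 fold change was 0.06, with a 95% interval from −0.18 to 0.30. By qPCR and Western blot in INS-1E cells, the study found no significant change of Ffar1 between PA + C3G and PA. The reason for the difference from the RNA-seq call was not tested. Within each library, the ratio of Ffar1 to Gpr119 FPKM was 1.21 ± 0.0546 (SD, n = 3) with BSA, 1.57 ± 0.102 with PA and 1.33 ± 0.0989 with PA + C3G, so Gpr119 lost a larger share of its level with PA than Ffar1 did.

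Since Gpr119 and Ffar1 were both lower with PA and Chrm3 was higher, the 250 bases before the RefSeq start of each are shown, on the strand that RefSeq gives the gene in build GRCr8. For Chrm3 that is the plus strand, whereas the authors' table, on a build that is not given, has the gene on the minus strand. The reason for this difference, and whether these cells use the RefSeq start, was not tested. Capitals mark matches, on either strand, to the TATA box TATAA, the CCAAT box, the GC box GGGCGG, the first bases TGACG of a cyclic AMP response element, the E-box CACGTG and the AP-1 site TGANTCA. No match overlapped one of a different motif in the windows shown. The windows lie at chrX:132736081-132736330, chr1:95239690-95239939 and chr17:64696677-64696926.
Gpr119: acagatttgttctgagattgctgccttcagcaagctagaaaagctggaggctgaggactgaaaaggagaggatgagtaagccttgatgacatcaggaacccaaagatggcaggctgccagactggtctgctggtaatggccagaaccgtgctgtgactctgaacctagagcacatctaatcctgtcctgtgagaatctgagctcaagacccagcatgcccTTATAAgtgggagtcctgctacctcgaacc
Ffar1: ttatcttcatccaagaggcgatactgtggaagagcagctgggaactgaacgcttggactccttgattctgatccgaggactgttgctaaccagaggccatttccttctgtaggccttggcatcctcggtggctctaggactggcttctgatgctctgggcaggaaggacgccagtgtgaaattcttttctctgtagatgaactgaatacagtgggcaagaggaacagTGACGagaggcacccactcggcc
Chrm3: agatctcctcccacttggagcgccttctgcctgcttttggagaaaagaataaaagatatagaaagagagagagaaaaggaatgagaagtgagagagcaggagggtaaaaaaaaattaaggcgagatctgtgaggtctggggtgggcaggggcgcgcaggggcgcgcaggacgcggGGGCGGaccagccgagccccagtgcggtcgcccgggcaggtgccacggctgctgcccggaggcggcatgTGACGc
The Gpr119 window holds TATAA on both strands, in overlapping matches that begin 30 and 29 bases before the start, and none of the other motifs. The Ffar1 window holds 1 TGACG, beginning 23 bases before the start. The Chrm3 window holds GGGCGG beginning 75 bases and TGACG beginning 6 bases before the start. Of 33469 promoter windows of the same length, 24.0% hold TATAA, 18.2% TGACG and 30.5% GGGCGG, and 34.0% hold CCAAT, 5.59% CACGTG and 6.34% TGANTCA. A match is a description of these letters and not of a bound site. Of the 7 receptors, 6 had a promoter in the RefSeq table. In the same window Glp1r and 1 start of Gcgr held GGGCGG and Adra2a held none of the motifs searched, and the promoter of Gipr was not used here.

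Gipr (ENSRNOG00000015860), the receptor of GIP, lies on chromosome 1 from 80063049 to 80073223 on the minus strand. Its libraries were at 162, 198 and 174 FPKM with BSA, at 128, 146 and 143 with PA and at 178, 220 and 213 with PA + C3G. The PA libraries were below those of the other groups, while those of BSA and PA + C3G overlapped. Gipr was 1.26-fold lower with PA than with BSA (log2 fold change −0.33 ± 0.09 SE, edgeR adjusted p = 0.0154) and 1.5-fold higher with PA + C3G than with PA (log2 fold change 0.58 ± 0.09 SE, edgeR adjusted p = 0.00286). The fall with PA was not called without PA replicate 1, at a log2 fold change of −0.28 and an adjusted p-value of 0.0543 from edgeR. Between PA + C3G and BSA the log2 fold change was 0.25, with a 95% interval from 0.04 to 0.47 and an edgeR adjusted p-value of 0.0601. It was called when BSA replicate 2 or PA + C3G replicate 1 was left out, at 0.33 in each case.

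Glp1r (ENSRNOG00000001152), the receptor of GLP-1, lies on chromosome 20 from 9586075 to 9626228 on the plus strand and has 2 annotated transcripts, which the table sums. It was at 71.3, 84.4 and 75.9 FPKM with BSA, at 65.3, 71.8 and 69.6 with PA and at 80.0, 86.4 and 80.4 with PA + C3G. The BSA libraries overlapped those of both other groups, and the PA + C3G libraries were all above the PA libraries. PA moved it by −0.14 on the log2 scale (95% interval −0.29 to 0.01, edgeR adjusted p = 0.103). With PA + C3G it was 1.23-fold higher than with PA (log2 fold change 0.29 ± 0.07 SE, edgeR adjusted p = 0.0126). Leaving out BSA replicate 1 turned the former into a call, at −0.20 with an adjusted p-value of 0.0287 from edgeR. In PA + C3G versus BSA it was 0.15, with a 95% interval from 0.01 to 0.30 and an edgeR adjusted p-value of 0.0962, and it was called without BSA replicate 2, at 0.21.

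The incretin receptors did not keep a fixed proportion. The ratio of Gipr to Glp1r FPKM within a library was 2.27, 2.35 and 2.29 with BSA, 1.97, 2.04 and 2.06 with PA and 2.23, 2.55 and 2.64 with PA + C3G. The ratios with PA were all below those of the other groups. The ratio of Gpr119 to Glp1r FPKM was 0.67 ± 0.0294 (SD, n = 3) with BSA, 0.42 ± 0.0242 with PA and 0.567 ± 0.0215 with PA + C3G, without overlap between any of the groups. A ratio within a library does not depend on how libraries are scaled to each other, but it shows only that the genes changed unequally.

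Gcgr (ENSRNOG00000036692), the glucagon receptor, lies on chromosome 10 from 109707962 to 109716128 on the plus strand and has 3 annotated transcripts. It was at 18.0, 16.0 and 16.8 FPKM with BSA, at 22.0, 19.1 and 20.9 with PA and at 19.3, 18.5 and 19.6 with PA + C3G. The BSA libraries were the lowest, and those of PA and PA + C3G overlapped. Gcgr was 1.24-fold higher with PA than with BSA (log2 fold change 0.31 ± 0.07 SE, edgeR adjusted p = 0.00302), the only receptor coupled to Gs among the 7 to rise. In PA + C3G versus PA it changed by −0.07, with a 95% interval from −0.22 to 0.07 and an adjusted p-value of 0.472 from edgeR. The PA + C3G group was 1.18-fold above BSA (log2 fold change 0.24 ± 0.07 SE, edgeR adjusted p = 0.0182), a call that was lost with TPM scaling, with limma, and when BSA replicate 2 (0.19), BSA replicate 3 (0.22), PA + C3G replicate 1 (0.22) or PA + C3G replicate 3 (0.21) was left out.

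Adra2a (ENSRNOG00000047545), which restrains insulin release through Gi, lies on chromosome 1 from 274766283 to 274769081 on the plus strand. Its libraries were at 18.7, 19.0 and 19.0 FPKM with BSA, at 11.0, 12.4 and 9.98 with PA and at 15.2, 14.5 and 14.5 with PA + C3G. No groups overlapped, and PA + C3G lay between PA and BSA. Adra2a was 1.67-fold lower with PA than with BSA (log2 fold change −0.74 ± 0.07 SE, edgeR adjusted p = 2.51e-05), 1.36-fold higher with PA + C3G than with PA (log2 fold change 0.44 ± 0.07 SE, edgeR adjusted p = 0.00341) and 1.23-fold lower with PA + C3G than with BSA (log2 fold change −0.30 ± 0.07 SE, edgeR adjusted p = 0.01). Unlike the other receptors that fell with PA, it has an inhibitory action on secretion. Within each library the ratio of Gcgr to Adra2a FPKM was 0.962, 0.840 and 0.885 with BSA, 2.00, 1.55 and 2.09 with PA and 1.27, 1.28 and 1.36 with PA + C3G, again without overlap.

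Chrm3 (ENSRNOG00000049410), the acetylcholine receptor coupled to Gq, lies on chromosome 17 from 63990599 to 63994169 on the minus strand. It was at 2.12, 2.04 and 1.79 FPKM with BSA, at 3.89, 4.45 and 4.92 with PA and at 2.48, 3.28 and 2.68 with PA + C3G. The groups did not overlap, and the order was the reverse of that of Adra2a. Chrm3 was 2.26-fold higher with PA than with BSA (log2 fold change 1.18 ± 0.14 SE, edgeR adjusted p = 7.13e-05), the only receptor of the 7 to change more than 2-fold in any comparison. With PA + C3G it was 1.53-fold lower than with PA (log2 fold change −0.61 ± 0.14 SE, edgeR adjusted p = 0.0121) and 1.48-fold higher than with BSA (log2 fold change 0.56 ± 0.14 SE, edgeR adjusted p = 0.00973). Without PA replicate 3 the difference between PA + C3G and PA was −0.54 with an adjusted p-value of 0.0513 from edgeR. Chrm3 had between 413 and 1091 estimated counts per library, against 21322 to 38086 for Gipr, and its standard errors were the largest of the 7.

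**Figure D3:**
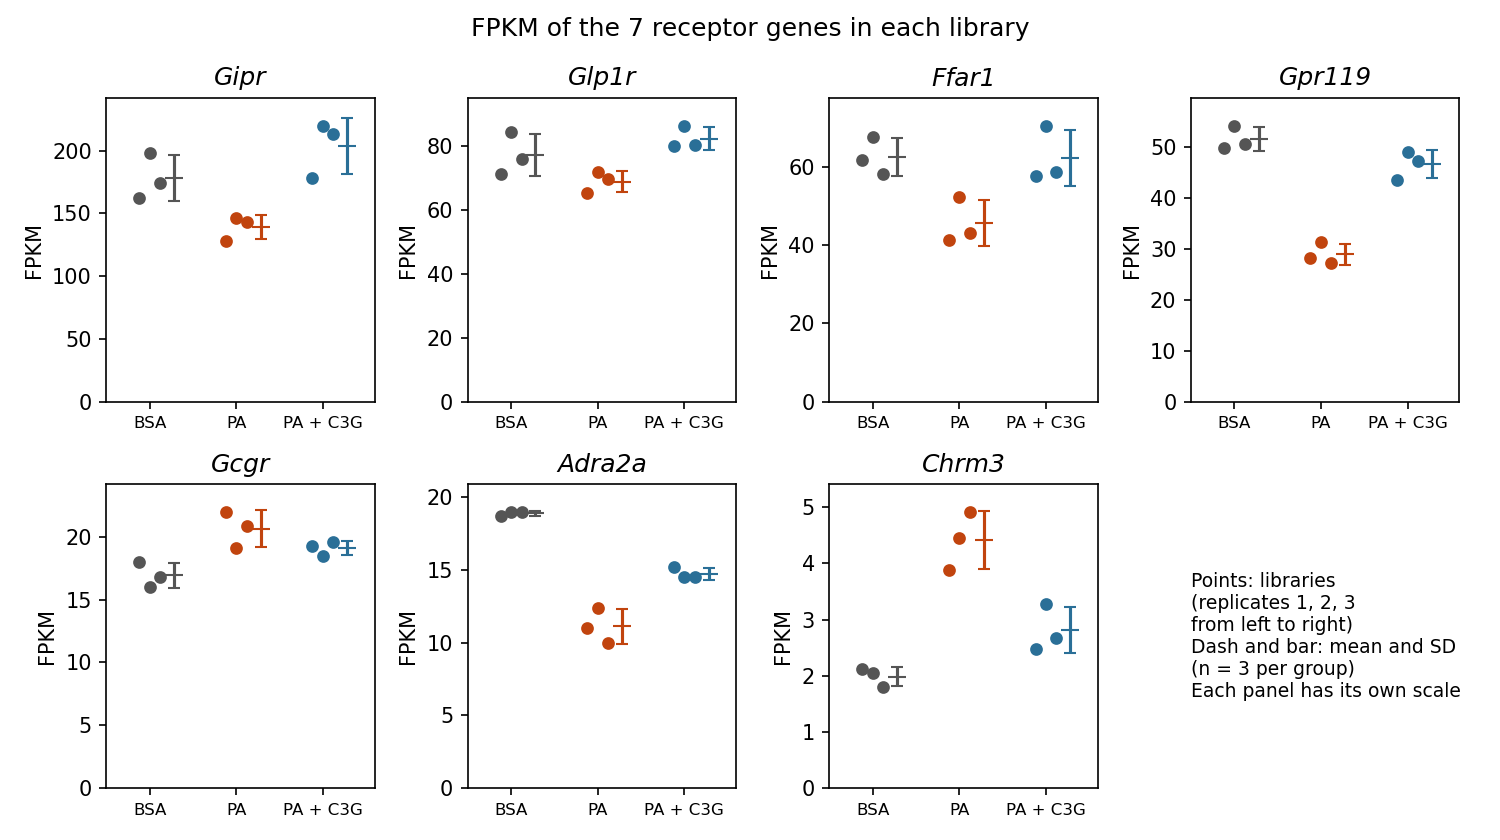
FPKM of the 7 receptor genes in each library of the BSA, PA and PA + C3G groups, each panel on its own axis from 0, with the mean and SD of 3 libraries beside the points. The PA libraries lie below the BSA libraries for Gipr, Ffar1, Gpr119 and Adra2a, above them for Gcgr and Chrm3, and overlap them for Glp1r.

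The FPKM of the PA and BSA groups did not overlap for 6 of the 7 receptors, and the same was true of 59.9% of all tested genes. Between PA + C3G and PA it was 6 receptors beside 39.5% of all tested genes, and between PA + C3G and BSA 4 receptors beside 50.3%. Within groups, the coefficient of variation of FPKM ran from 0.932% for Adra2a with BSA to 14.7% for Chrm3 with PA + C3G. Replicate 2 had the highest FPKM of its group in all 3 groups for Ffar1, Gpr119, Glp1r and Gipr, but not for Gcgr, Adra2a or Chrm3. How many of all tested genes have such a pattern was not counted, so it is not read as particular to these receptors.

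For each receptor, the tested genes with the most similar profile were found by the root mean square difference of the gene-centred log2 CPM over the 9 libraries, which sets no test. Genes with a placeholder symbol, such as a clone, LOC or RGD identifier, were left out of this search. The nearest to Gpr119 were Ttyh2 and Ovol2, both at a difference of 0.066, and the nearest to Ffar1 were Myo16 at 0.067 and Dnah9 at 0.074. Kif26a and Pkdcc were both 0.075 from Gipr, and Ppard at 0.045 and Mfng at 0.047 were nearest to Glp1r. Atp9a at 0.033 and Cltc, the clathrin heavy chain, at 0.037 were nearest to Gcgr, and Cand2 at 0.053 and Fam13b at 0.055 to Adra2a. The nearest to Chrm3 were Adcy1, an adenylate cyclase that calcium activates, at 0.109 and Atf6, a sensor of endoplasmic reticulum stress, at 0.115. Adcy1 was at 8.98 ± 1.12 FPKM (SD, n = 3) with BSA, 19.2 ± 1.60 with PA and 12.6 ± 1.39 with PA + C3G.

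The genes around these receptors were taken from 8 lists of 123 symbols that cover other receptors of beta cells by their G protein, the cyclic AMP, phospholipase C and Gi arms, the kinases, arrestins and RGS proteins that switch receptors off, and ligands. The lists, like the receptors, were chosen with earlier results of these data known. They have 114 entries in the table, of which 83 passed the filter. PA changed 51 of these (61.4%, against 51.0% of all tested genes), 24 of them upward and 27 downward. PA + C3G differed from PA in 28 (33.7%, against 21.2%) with TMM normalization, 20 higher and 8 lower. With TPM scaling fewer of the list genes were called, 9 higher and 14 lower. Over all 12958 tested genes more were called with TPM scaling, 3300 beside 2752 with TMM normalization. PA + C3G differed from BSA in 37 (44.6%, against 36.9%), 22 higher and 15 lower with TMM normalization, and 20 each way with TPM scaling. The counts of single lists below are with TMM normalization only.

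**Figure D4:**
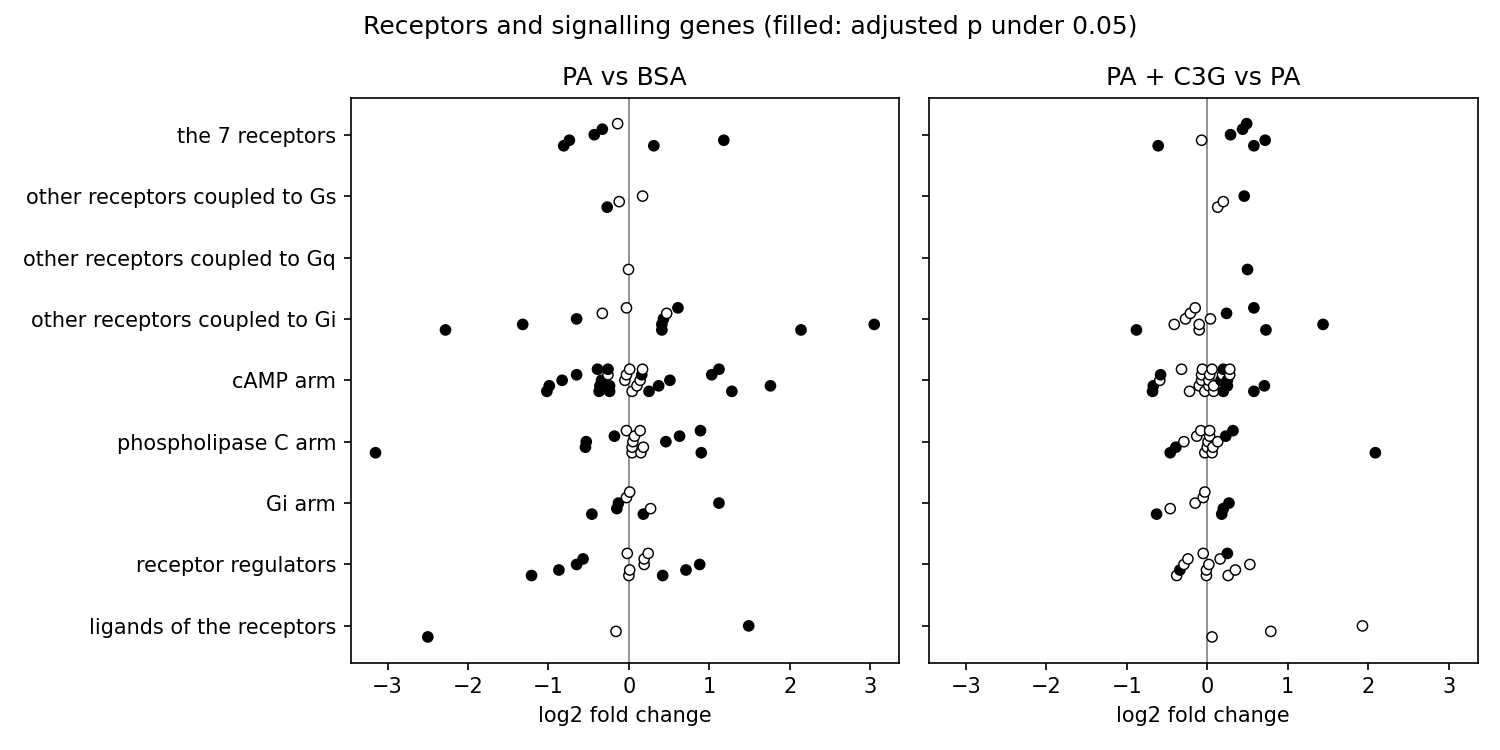
Log2 fold change of the 7 receptors and of the 83 tested genes of the signalling lists in PA versus BSA and PA + C3G versus PA, 1 point per gene entry and filled where the adjusted p-value was under 0.05. The receptors coupled to Gi spread most widely in PA versus BSA among the receptor lists, from −2.28 to 3.05. That list held 12 tested genes, beside 3 for Gs and 1 for Gq.

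Among the other receptors, the largest changes were in those coupled to Gi, the list with most tested genes (12, beside 3 for Gs and 1 for Gq). PA changed 9 of 12 tested (beside 51.0% of all tested genes), 6 upward and 3 downward. When C3G was added to PA, 5 differed (beside 21.2%), 4 of them upward. Drd2, the dopamine D2 receptor, stood at 1.05 ± 0.302 FPKM (SD, n = 3) in the BSA group, rose to 8.58 ± 0.654 with PA and was at 4.55 ± 0.284 with PA + C3G, with log2 fold changes of 3.05 and −0.88 in PA versus BSA and PA + C3G versus PA (edgeR adjusted p = 1.12e-06 and 0.00781). Chrm4, a muscarinic receptor that couples to Gi where Chrm3 couples to Gq, moved the opposite way to Chrm3, from 2.05 ± 0.322 FPKM to 0.412 ± 0.0384 with PA and 1.09 ± 0.189 with PA + C3G (log2 fold changes −2.28 and 1.44, adjusted p = 9.16e-06 and 0.00113 from edgeR). Sstr3, a somatostatin receptor and the most abundant of the list, rose by 0.61 with PA and by a further 0.24 with PA + C3G (edgeR adjusted p = 2.13e-05 and 0.0168). The latter call was lost with TPM scaling (0.16) and when PA replicate 1 (0.23), PA replicate 3 (0.25), PA + C3G replicate 2 (0.19) or PA + C3G replicate 3 (0.24) was left out.

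Few other receptors coupled to Gs or Gq were expressed. Of 3 tested that couple to Gs, Adcyap1r1, the receptor of PACAP, was the one that passed in PA versus BSA and in PA + C3G versus PA, with a log2 fold change of −0.27 with PA and 0.46 with PA + C3G over PA (edgeR adjusted p = 0.0132 and 0.00294). Adora2b, an adenosine receptor and the most abundant of these, was at 12.2 ± 2.37, 11.0 ± 0.686 and 12.3 ± 0.899 FPKM (SD, n = 3) with BSA, PA and PA + C3G. Its difference between PA and BSA, −0.12, was called only when BSA replicate 1 was left out, at −0.29. The remaining gene, Adora2a, another adenosine receptor, passed in PA + C3G versus BSA, at 0.30 (edgeR adjusted p = 0.0407). The 1 tested receptor that couples to Gq, P2ry1, which binds ADP, was at 21.1 ± 0.955 FPKM with BSA, 20.6 ± 2.76 with PA and 28.2 ± 1.28 with PA + C3G. PA moved it by −0.01 on the log2 scale (edgeR adjusted p = 0.927), and PA + C3G raised it by 0.49 over PA (edgeR adjusted p = 0.00438).

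In the cyclic AMP arm, 19 of 27 tested entries differed between PA and BSA (beside 51.0% of all tested genes), 8 higher and 11 lower, with a median log2 fold change of −0.03. Between PA + C3G and PA 10 differed (beside 21.2%), 7 higher and 3 lower, with a median of 0.03. Gnas, which encodes the alpha subunit of Gs, has 2 entries in the table and is uncertain, because reads of 1 gene could be divided between them. The more abundant was at 766 ± 16.1 FPKM (SD, n = 3) with BSA, 638 ± 33.7 with PA and 1020 ± 66.6 with PA + C3G, with log2 fold changes of −0.24 and 0.71 (edgeR adjusted p = 0.00441 and 8.03e-05). The other changed by −0.24 and 0.25 (edgeR adjusted p = 0.014 and 0.0291). Pde4c, a phosphodiesterase that breaks down cyclic AMP, also has 2 entries, which moved in opposite directions. One rose by 1.76 with PA and the other fell by 0.65 (edgeR adjusted p = 2.82e-05 and 0.00161), so no direction is given for the gene. Crem, a transcription factor of the cyclic AMP response, fell by 1.02 with PA (edgeR adjusted p = 0.0121), with BSA libraries that varied widely, at 6.03 ± 2.53 FPKM. Without BSA replicate 3 the difference for Crem was −0.66 (edgeR adjusted p = 0.0392).

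In the phospholipase C arm 8 of 16 tested genes differed between PA and BSA (beside 51.0% of all tested genes), 4 in each direction. Between PA + C3G and PA 5 differed (beside 21.2%), 3 higher and 2 lower. Gnaq, the alpha subunit through which Ffar1 and Chrm3 act, fell by 0.18 with PA (edgeR adjusted p = 0.0207), a call lost with TPM scaling (−0.15) and without BSA replicate 1 (−0.16), PA replicate 1 (−0.15) or PA replicate 3 (−0.16). Trpm5, a cation channel that calcium opens, fell from 3.77 ± 1.17 FPKM (SD, n = 3) to 0.415 ± 0.0832 with PA and was at 1.74 ± 0.26 with PA + C3G (log2 fold changes −3.15 and 2.09, adjusted p = 7.76e-06 and 0.00071 from edgeR). Prkcz, an atypical protein kinase C, rose by 0.90 with PA (edgeR adjusted p = 0.000197). Its change in PA + C3G versus PA, −0.39 (edgeR adjusted p = 0.0476), was a call lost in 7 of 18 alternatives. Unc13a, which primes granules for release and binds diacylglycerol, was at 17.6 ± 0.797, 32.1 ± 0.774 and 22.7 ± 0.958 FPKM with BSA, PA and PA + C3G.

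In the Gi arm PA changed 5 of 8 tested genes (beside 51.0% of all tested genes), 2 upward and 3 downward. When C3G was added to PA, 4 differed (beside 21.2%), 3 of them upward. Gnao1, a Go alpha subunit, fell by 0.46 with PA and was higher by 0.27 with PA + C3G than with PA (edgeR adjusted p = 0.000161 and 0.0134), the latter lost with TPM scaling (0.18) and without PA replicate 3 (0.22). Gnai2, the most abundant, was at 235 ± 8.58, 208 ± 3.52 and 230 ± 12.4 FPKM (SD, n = 3). Its rise in PA + C3G versus PA, 0.18 (edgeR adjusted p = 0.0237), was lost in 7 of 19 alternatives. Among these were TPM scaling (0.09) and both limma fits (0.14 in each). Kcnj3, a subunit of the potassium channel that Gi proteins open, stood at 4.46 ± 0.387 FPKM with BSA, rose to 9.52 ± 1.13 with PA and was at 5.99 ± 0.399 with PA + C3G (log2 fold changes 1.12 and −0.63, adjusted p = 3.26e-05 and 0.005 from edgeR).

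Of 13 tested genes that switch receptors off or regulate them, 7 differed between PA and BSA (beside 51.0% of all tested genes), 3 higher and 4 lower. Between PA + C3G and PA 2 differed, beside 21.2% of all tested genes. Rgs3, which speeds the inactivation of G proteins, fell from 8.21 ± 0.15 FPKM (SD, n = 3) to 3.48 ± 0.272 with PA (log2 fold change −1.21, adjusted p = 7.3e-07 from edgeR) and was at 4.03 ± 0.193 with PA + C3G. Its rise over PA, 0.25 (edgeR adjusted p = 0.0332), was 1 of the 2 calls and was lost in 11 of 19 alternatives, among them TPM scaling (0.16), both limma fits (0.17 and 0.21) and leaving out BSA replicate 1 or 3, PA replicate 2 or 3, or PA + C3G replicate 1 or 3 (0.20 to 0.27). Rgs7 rose by 0.88 and Rgs9 by 0.71 with PA (edgeR adjusted p = 5.76e-05 and 3.11e-05). Grk2, a kinase that desensitizes receptors and the most abundant of the list, was at 68.5 ± 1.96, 67.8 ± 2.77 and 63.9 ± 0.975 FPKM.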

How the data were processed

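Polyadenylated RNA of 9 INS-1E libraries was sequenced by the authors in paired-end mode after strand-specific preparation. The submitters' processing notes name cutadapt 1.9, HISAT2 2.0.4, StringTie 1.3.4d, DESeq2 and edgeR, and the genome build is not given in the sources used here. The authors deposited estimated counts per gene, which are whole and not normalized, and FPKM, which the authors scaled to gene length and library size. Low counts pile up at multiples of 4 (4044 values of 4 against 2040 of 3 and 1276 of 5), so a fragment may be worth several counts, and counting error is larger than the totals give.

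The 12958 genes with a mean of at least 1 FPKM were tested on the counts, rounded to whole numbers, with edgeR 4.0.16 in R 4.3.3 (TMM, quasi-likelihood test, all 9 libraries in 1 fit, Benjamini-Hochberg over all tested genes). Groups came from the titles and treatment labels of the samples, whose titles name only C3G for the PA + C3G group. The standard error of a log2 fold change is its size over the root of the F statistic, and 95% intervals use the moderated degrees of freedom. In simulated data for PA versus BSA over 12958 genes, 100 genes changed by 0.5 and 100 by 1 on the log2 scale, in either direction. Of these, 76% and 100% were called. The changed genes were drawn from those above a minimum expected count, and all genes had the same fixed spread. Far fewer genes changed than were called in the real data, so these rates are not the shares that the real tests detect. The receptors and gene lists were chosen with earlier results of these data known. Named genes are the 7 receptors, from each signalling list the most abundant gene and the called genes with the largest rise and fall in PA versus BSA and PA + C3G versus PA, and the 2 genes nearest in profile to each receptor. The counts of calls over all genes, over the receptors and over the lists together, and the fold changes of the receptors and named genes (of Gnas and Pde4c 1 entry each), were also computed with DESeq2 1.42.0, with TPM scaling, median-ratio size factors, no filter, a mean of at least 5 FPKM, only the compared groups, the replicate number as a block, limma 3.58.1 on log2(FPKM + 1) and log2(FPKM + 0.1), counts divided by 4, and leaving out each library.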

Additional observations from a re-analysis of the deposited data

How the results depend on the processing

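With 3 libraries per group, some calls of small differences changed when 1 library was left out. The fall of Gpr119, Adra2a and Ffar1 with PA, the rise of Chrm3 and Gcgr with PA, and the higher Gpr119, Gipr, Glp1r and Adra2a with PA + C3G than with PA kept their direction and their call under all alternatives that could test them, since Chrm3 did not reach a mean of 5 FPKM. Where a call was lost or gained, the cause was not tested. For PA + C3G versus PA, the count over all genes fell from 2752 to 1718 without PA replicate 3, and the fits without 1 library gave 1718 to 2838. The same fits gave 0.39 to 0.60 for Ffar1 and −0.74 to −0.53 for Chrm3 in that comparison, −0.40 to −0.25 for Gipr and −0.20 to −0.08 for Glp1r in PA versus BSA, and −0.05 to 0.11 for Ffar1, 0.19 to 0.27 for Gcgr, 0.18 to 0.33 for Gipr and 0.09 to 0.21 for Glp1r in PA + C3G versus BSA.

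In PA + C3G versus BSA, Gcgr was no longer called with TPM scaling (0.18), limma on log2(FPKM + 1) (0.17) or limma on log2(FPKM + 0.1) (0.18), Gipr was called with DESeq2 (0.25), and Ffar1 changed sign to 0 with TPM scaling and to −0.01 with either limma fit. On log2(FPKM + 1) the changes of low genes were smaller, at −1.11 for Chrm4 and −1.72 for Trpm5 in PA versus BSA and 0.56 and 0.95 in PA + C3G versus PA. Small values of genes that were not called also changed sign. In PA versus BSA these were Grk2 (−0.01 with either limma fit, −0.02 to 0.04 without 1 library) and P2ry1 (0.02 with TPM scaling, −0.13 to 0.04 without 1 library). In PA + C3G versus BSA they were Gnai2 (−0.03 with TPM scaling, −0.04 with either limma fit, −0.02 to 0.06 without 1 library) and Adora2b (−0.09 to 0.16 without 1 library), and in PA + C3G versus PA Crem (−0.03 with TPM scaling, 0 and −0.01 with limma at pseudocounts of 1 and 0.1, −0.17 to 0.21 without 1 library) and Npy (−0.02 with TPM scaling).

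The groups share replicate numbers, but the numbers mark no shared culture in the labels. Deviations of same-numbered libraries from their group means correlated at −0.02 to 0.045 for PA with BSA and 0.025 to 0.08 for PA + C3G with PA, across genes that are not independent. For PA + C3G with BSA the correlations were −0.092 to 0. The libraries that correlated best with their own number were 3 of 6, 6 of 6 and 0 of 6 in these comparisons. With a replicate block, 7 receptors were called in PA versus BSA, where Glp1r at −0.14 was added, 6 in PA + C3G versus PA, and 5 rather than 3 in PA + C3G versus BSA, where Glp1r at 0.16 and Gipr at 0.25 were added. The block also added calls of Gcg (1.88) and Cck (0.69) in PA + C3G versus PA. The counts over all genes were then 6843, 3118 and 5058.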

Other observations

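The ligand list had 3 genes that passed the filter. Npy, which encodes a peptide that acts on receptors coupled to Gi, was abundant, at 376 ± 28.1 FPKM (SD, n = 3) with BSA, 332 ± 15.8 with PA and 339 ± 17.8 with PA + C3G. Gcg, the precursor of the ligands of Gcgr and Glp1r, was at 20.5 ± 11.5, 3.57 ± 2.34 and 13.3 ± 9.14 FPKM, and Cck, which encodes cholecystokinin, at 2.72 ± 0.829, 7.51 ± 3.02 and 12.6 ± 7.86 FPKM. For Gcg the log2 fold change with PA was −2.50 (adjusted p = 0.0149 from edgeR), while Gcgr rose by 0.31. Cck was higher with PA by 1.49 (adjusted p = 0.0224 from edgeR). The Gcg call was lost without BSA replicate 1 (−2.07) or PA replicate 3 (−2.45), and the Cck call without BSA replicate 2 (1.3), BSA replicate 3 (1.43) or PA replicate 1 (1.14). For Gcg and Cck the difference between PA + C3G and PA was not called, at 1.93 and 0.79 (adjusted p = 0.0814 and 0.254 from edgeR). With Gcg it was called without PA + C3G replicate 2 (2.35). For Cck it ran from 0.18 without PA + C3G replicate 1 to 1.13 without PA replicate 1 and was called in none of the fits without 1 library.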
